A study of Mus musculus with 6 samples.

Results

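The transcripts described here encode the initiation and elongation factors of cytoplasmic protein synthesis in CH12F3-2A, a B cell line from a mouse lymphoma. Members were the probes whose current gene symbol begins with Eif1 to Eif6 (leaving out the kinases named Eif2ak and the binding proteins named Eif4ebp), with Eef1a, Eef1b, Eef1d or Eef1g, or is Eef2. The rule found 51 probes of 49 genes, among 23473 probes and 16390 named genes in the table, and used no measured value. Each gene was read through its brightest probe. All 49 genes had a value on all 6 arrays and were tested, among 15224 genes tested in all. By its letters the rule also took Eef1akmt1, Eef1akmt2 and Eef1aknmt, which encode methyltransferases that act on the elongation factor eEF1A. Eif1, Eif1ax, Eif2s2, Eif2s3y, Eif3g and Eef1g were not analysed here.

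The study compared 2 groups of 3 samples. Both groups were CH12F3-2A cells electroporated with siRNA, cultured for 24 h, stimulated with CD40L, IL4 and TGFb (together called CIT) and cultured for another 24 h. One group received control siRNA (siControl) and the other siRNA against Spt6 (siSpt6), the product of Supt6, which handles histones during transcription by RNA polymerase II. The labels name the siRNA chemistry only for siSpt6, and they give the 2-mercaptoethanol of the medium in micromolar for siControl and in millimolar for siSpt6. The sources used here do not give whether the arrays of both groups were run together. Each Cy5-labelled RNA was hybridised alone to a 1-colour array, and the values are intensities without a physical unit. Nothing in the labels says that a group's samples were separate cultures. The p-values therefore set the group difference only against the spread among these samples, and that spread may be technical.

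Translation starts when eIF2, carrying the initiator tRNA, joins the small ribosomal subunit together with eIF1, eIF1A, eIF3 and eIF5. The eIF4 factors bind the mRNA cap, unwind the leader and recruit this complex, and eIF5B joins the large subunit at the start codon. eEF1A then brings each aminoacyl-tRNA to the ribosome and eEF2 moves the ribosome along the message. Activated B cells that grow and secrete antibody depend on a high output of this machinery.

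The probe for Supt6, the target of the siRNA, read 33.1, 32.1 and 32.1 in siControl and 25.1, 21.8 and 28.1 in siSpt6. The groups did not overlap, but the log2 difference of -0.38 (SE 0.13) missed the threshold of 0.05 (limma adjusted p = 0.0973). It passed after cyclic loess normalization (limma adjusted p = 0.0491), but not after quantile normalization (0.0960) or without any 1 array (0.0728 to 0.222). Array medians lay near 30 in every sample, and log2 intensities correlated at r = 0.987 to 0.991 within a group and 0.976 to 0.981 between groups, over probes, which are not independent replicates. Of 10 B cell markers, 9 were measured, with summed intensities of 30631 to 34616 in siControl and 31747 to 34967 in siSpt6. Cd74 made the largest part of these sums, with means of 21108 in siControl and 17745 in siSpt6. Pax5, at 39.4 and 38.4, and Ighm, at 32.6 and 43.7, read near the array medians. Among the 9, Cd22 fell and Cd79b and Blk rose. Each kept its call after both normalizations and lost it in 5 of the 6 fits without 1 array (limma adjusted p up to 0.0830, 0.104 and 0.107). The summed intensities of 6 T cell markers were 45.4 to 63.1 and 45.3 to 53.2, those of 4 myeloid markers 67.1 to 80.8 and 77.9 to 83.6, and those of 4 fibroblast and epithelial markers 48.7 to 54.2 and 38.9 to 49.2. Of these 14 markers of other cell types none passed limma's threshold, and 2 had an unadjusted p under 0.05.

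In cells given siRNA against Spt6, 14 of the 49 translation factor genes fell and none rose (limma, adjusted p under 0.05 over all 21584 tested probes; 1 was higher at an unadjusted p under 0.05). These counts take each gene's brightest probe, and 1 of the 14, Eif3j1, had another probe that rose (0.65, limma adjusted p = 0.0284). The falls ran from 1.44-fold to 1.83-fold. They were led by Eif4h and Eif4a1 of the mRNA-unwinding step, Eif2b3 of the factor that recharges eIF2, and Eif5a, whose protein helps the ribosome form difficult peptide bonds. Over all genes tested, 9.65% fell and 7.4% rose by the same rule, and of all probes 16.3% changed. For 26 members every siSpt6 array read lower than every siControl array (21.2% of all genes), and higher for 1 member, Eif3h (16.8% of all genes). The groups overlapped for the other 22. The log2 differences of 40 members were negative and those of 9 were positive, with a median of -0.29, against 0.00 over all genes tested. The lowest was that of Eif4h, at -0.87, and the highest that of Eif5a2, at 0.52, which did not pass. In these bulk samples, fewer cells carrying a transcript and less of it per cell cannot be told apart.

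These genes are brightly read, and brightness went with the direction of change across the arrays. Of the 49 members, 40 lay in the brightest 20% of genes by mean log2 intensity, and 13 of these 40 fell. Among genes that bright 22.5% of all genes fell, and their median log2 difference was -0.17. The members lay toward the bright end of this range. In the brightest 10% of genes lay 32 of the 40, and 11 of these 32 fell. There 26.9% of all genes fell, with a median of -0.24. In the next 10% lay 8 members, of which 2 fell, against 18.1% of all genes and a median of -0.11. Quantile normalization and cyclic loess, which remove such a trend, moved the median of the brightest 20% from -0.17 to 0.02 and 0.01. They moved the median of the members from -0.29 to -0.11 and -0.14. With quantile normalization 5 members fell and 2 rose, and with cyclic loess 6 fell and 2 rose. By those settings 7.15% and 8.03% of all genes fell and 8.68% and 8.51% rose. Over all tested probes the share of calls that were rises went from 45.5% to 57.3% and 53.6%. The 2 members that rose after either normalization were Eif3h and Eif3f. Leaving out 1 array at a time left 6 to 9 falls among members, fewer without any 1 of the 6 arrays. The counts over all probes dropped as well, from 1922 falls to between 1052 and 1421 and from 1603 rises to between 1047 and 1124. Other settings raised the members' count of falls, to 21 with bright probes only, 20 with limma's trend and robust options and 18 with a pseudocount. Falls over all probes went, in the same order, from 1922 of 21584 to 2515 of 10792, 2572 of 21584 and 2293 of 21584. Bright probes only kept fewer of the members. By these settings no member rose. The genes gained, all among those with negative differences, were Eef1a1, Eif3b, Eif3d and Eif2s3x by all 3 of these settings, Eif2b5 and Eif4g1 by bright probes and by trend and robust options, and Eif3m by bright probes. The part of the trend with brightness in the falls was not tested.

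**Figure D1:**
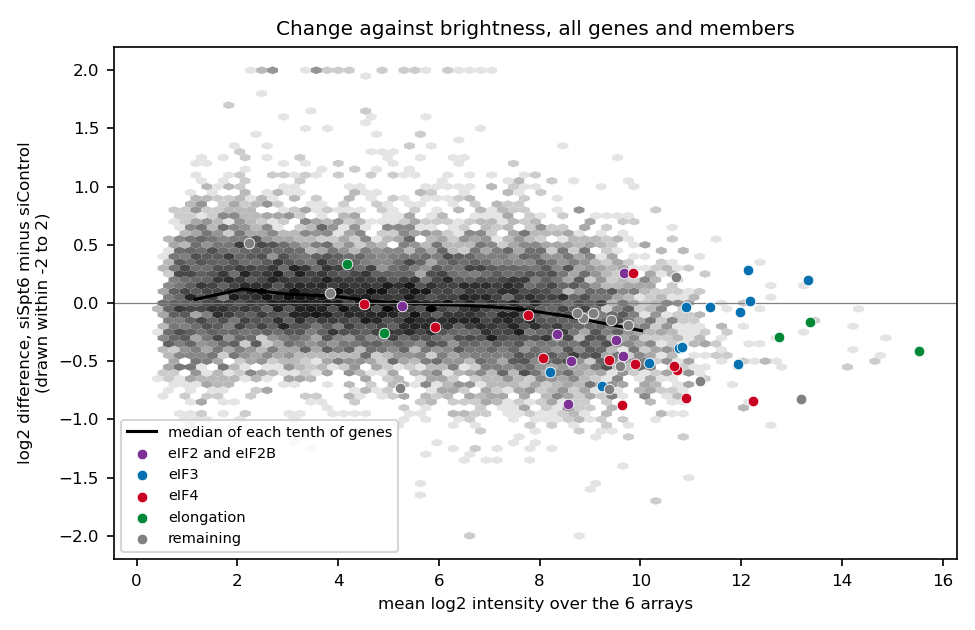
Log2 difference (siSpt6 minus siControl) of each tested gene against its mean log2 intensity over the 6 arrays, with the translation factor genes marked. Of the 49 members, 40 lie in the brightest 20%, where the median of all genes is -0.17. Of these 40, 32 lie in the brightest 10%, where the median of all genes is -0.24.

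Eif2b3, Eif4h and Eif4a1 fell by the deposited values, after both normalizations and without any 1 array. Eif4b and Eif5a kept their calls without any 1 array and lost them with quantile normalization, Eif5a also with cyclic loess. Eif1a and Eef1aknmt kept theirs after both normalizations. The other 7 (Eif3a, Eif3c, Eif3j1, Eif4a3, Eif4e2, Eif5 and Eif6) lost theirs after both. Just outside the threshold stood Eef1a1, Eif3b and Eif3d, with limma adjusted p of 0.0534, 0.0617 and 0.0694, and just inside it Eif5 and Eif6, with 0.0479 and 0.0408.

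**Figure D2:**
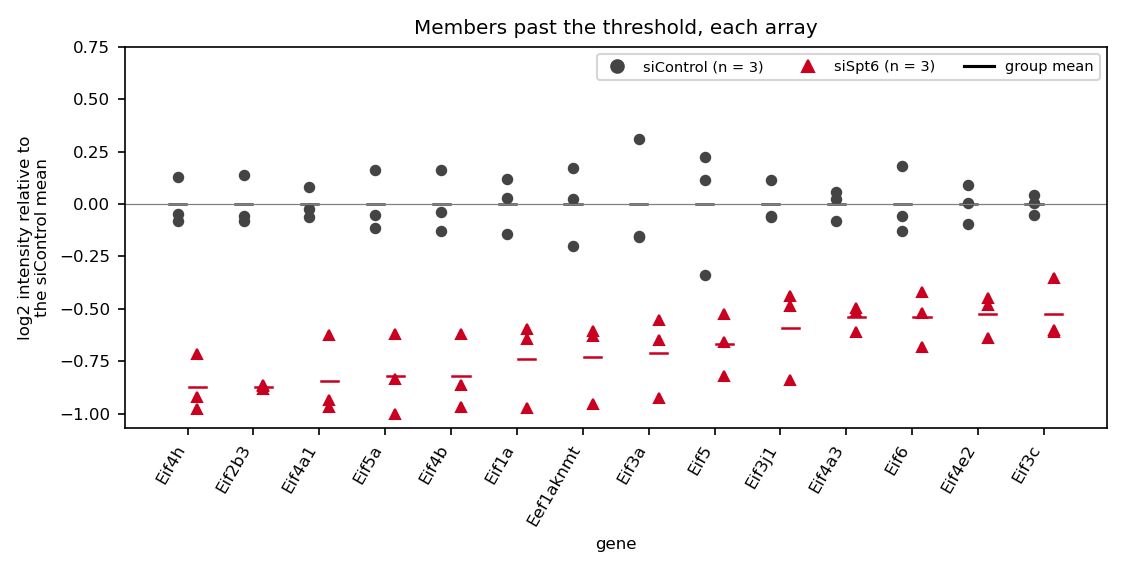
Log2 intensity of each array relative to the siControl mean for the 14 genes that fell (circles siControl, triangles siSpt6, n = 3 each, bars the group means). The 3 siSpt6 values lie below the 3 siControl values for every gene shown.

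RefSeq promoter sequences (GRCm38.p6) were at hand for 39 of the 49 genes, and the 250 bases before each listed start were searched. A gene counted as matched if any of its listed promoters held the letters, so genes with more promoters had more chances to match. The E-box CACGTG, a palindrome that reads the same on both strands and is the recognition sequence of MYC and related factors, was present in 11 of the 39 (28.2%). It was present in 8.54% of 13127 genes named on the array and in 6.02% of all 32851 promoters. Among members it stood before 4 of 11 genes that fell (36.4%) and 7 of 28 that did not (25.0%). The following sequences are shown because they place the same letters before genes that fell and genes that did not. They were picked among members with a single listed promoter. Matched members not shown were Eif5a, which fell, and Eif4e, Eif1b, Eif3k and Eif5a2, which did not. Each sequence is 60 bases long, 5′ to 3′ on the strand of the gene, with the E-box in capitals.
Eif4a1, fell, chr11:69672580-69672639, minus strand: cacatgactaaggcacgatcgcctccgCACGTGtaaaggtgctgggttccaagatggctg
Eif4h, fell, chr5:134639473-134639532, minus strand: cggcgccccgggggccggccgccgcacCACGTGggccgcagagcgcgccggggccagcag
Eef1aknmt, fell, chr1:162548460-162548519, minus strand: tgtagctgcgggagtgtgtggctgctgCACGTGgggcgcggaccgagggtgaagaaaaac
Eef2, did not pass, chr10:81176561-81176620, plus strand: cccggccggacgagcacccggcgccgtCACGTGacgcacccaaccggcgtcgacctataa
Eif3f, did not pass, chr7:108934320-108934379, plus strand: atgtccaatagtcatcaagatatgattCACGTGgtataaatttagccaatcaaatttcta
Eif4g1, did not pass, chr16:20672646-20672705, plus strand: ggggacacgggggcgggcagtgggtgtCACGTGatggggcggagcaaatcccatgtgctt

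The E-box began 189 bases before the start of Eif4a1, 96 before Eif4h, 147 before Eef1aknmt, 43 before Eef2, 68 before Eif3f and 54 before Eif4g1. The ETS letters CCGGAAG, searched on both strands, were before 9 of the 39 genes (23.1%). They were before 11.6% of genes named on the array and in 6.91% of all promoters. The letters TGATGNAA, the core of the element that ATF4 binds with C/EBP partners, were in 1 of 39 (2.56%, Eif2s3x), against 2.94% of genes named on the array and 3.45% of all promoters. A match describes the letters of the window and is neither a binding site nor a cause.

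The eIF4 factors prepare the mRNA for the ribosome. Of 12 genes measured 5 fell (Eif4h, Eif4a1, Eif4b, Eif4a3 and Eif4e2) and 7 did not pass. Of the 5 genes taken as the complex eIF4F (Eif4a1, Eif4a2, Eif4e, Eif4g1 and Eif4g3), only Eif4a1 fell, also after either normalization. Over the 12 genes the median log2 difference was -0.51, and -0.29 and -0.32 after quantile normalization and cyclic loess. By the deposited values 9.65% of all genes tested fell. In the brightest 10% of genes, where the median level of the eIF4 group lay, 26.9% of all genes fell, with a median of -0.24. Eif4h, a cofactor of the eIF4A helicase, read 1172, 1013 and 1036 in siControl and 652, 544 and 566 in siSpt6. Every siSpt6 array was far below every siControl array. Its log2 difference was -0.87 (SE 0.13, 95% interval -1.18 to -0.57), a 1.83-fold fall (limma adjusted p = 0.00648). Eif4a1, the main RNA helicase of initiation, read 6331, 6804 and 6167 in siControl and 3283, 4164 and 3365 in siSpt6. Its groups did not overlap either, with a log2 difference of -0.84 (SE 0.14) and a 1.79-fold fall (limma adjusted p = 0.00833).

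Eif4b, whose protein like eIF4H stimulates eIF4A, read 2839.6, 2321 and 2470.4 in siControl and 1647, 1296 and 1391 in siSpt6. The lowest siControl array stood above the highest siSpt6 array, and the log2 difference was -0.82 (SE 0.14, limma adjusted p = 0.0115). After quantile normalization it was -0.53 (limma adjusted p = 0.0603). The helicase and both of its cofactors thus fell by the deposited values. Eif4a2, which encodes a close relative of eIF4A1, read 1439, 3461 and 1799 in siControl and 1149, 2126 and 1103 in siSpt6. These groups overlapped, with replicate 2 the highest array of each, and the log2 difference of -0.58 (SE 0.39) did not pass (limma adjusted p = 0.373). Eif4a3, which encodes the helicase of the exon junction complex rather than an initiation helicase, read 1845, 1983 and 2034 against 1279.5, 1384 and 1364. It fell 1.45-fold without overlap (log2 difference -0.54, SE 0.11, limma adjusted p = 0.0194). It fell in 2 of the 6 fits without 1 array, those without siControl replicate 1 and without siSpt6 replicate 3 (limma adjusted p from 0.0458 to 0.0640 over the 6).

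Of the cap-binding genes, Eif4e2, whose protein binds the cap and is known as a repressor, fell 1.44-fold, with intensities of 1146 ± 73.5 and 797 ± 55.5 (SD, n = 3 in each group, limma adjusted p = 0.0282). It kept its call only in the fit without siControl replicate 3 among the fits without 1 array. Eif4e, the cap-binding protein of initiation, read 964, 858 and 583 in siControl and 613, 540.3 and 527 in siSpt6. The groups overlapped through siControl replicate 3, and the log2 difference of -0.49 (SE 0.20) did not pass (limma adjusted p = 0.159). Without that array the limma adjusted p was 0.0321. Eif4e3 had a log2 difference of -0.20, with overlap, and Eif4enif1, whose protein carries eIF4E into the nucleus, one of -0.11.

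The scaffold genes did not pass. Eif4g1, which bridges the cap-binding protein and eIF3, read 317, 296 and 335 in siControl and 256, 184 and 248 in siSpt6, a log2 difference of -0.48 without overlap (SE 0.16, limma adjusted p = 0.0934). Eif4g3 stood at -0.01 (SE 0.20). Eif4g2, which encodes a scaffold that lacks the site for eIF4E, had the highest value of the eIF4 group, 0.26 (SE 0.44), and its siControl arrays were widely spread, at 414, 973 and 1521. The siSpt6 values of 954, 1195 and 914 all lay within that spread.

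eIF2 delivers the initiator tRNA, and the 5-subunit factor eIF2B reloads it with GTP. Of 7 genes of the pair measured, 1 fell and 6 did not pass, with a median log2 difference of -0.32 (-0.14 and -0.15 after the 2 normalizations). By the deposited values 9.65% of all genes tested fell. In the second brightest 10% of genes, where the group's median level lay, 18.1% of all genes fell, with a median of -0.11. The fall among these 7 was in Eif2b3, which encodes the gamma subunit of eIF2B. It read 491, 484 and 562 in siControl and 281, 277 and 280.2 in siSpt6. The siSpt6 arrays were nearly equal and all far below siControl, with a log2 difference of -0.87 (SE 0.12, 95% interval -1.15 to -0.60) and the smallest limma adjusted p of the members, 0.00451. Leaving out 1 array gave limma adjusted p from 0.0153 to 0.0209.

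The other subunits of eIF2B did not follow it one by one. Eif2b5, the catalytic epsilon subunit, read 819, 915 and 1121 against 605, 704 and 758, a log2 difference of -0.46 without overlap (SE 0.16, limma adjusted p = 0.105). It passed with the replicate number as a block (limma adjusted p = 0.0480). Eif2b1 and Eif2b4 stood at -0.32 and -0.26, also without overlap (limma adjusted p = 0.184 and 0.226). Eif2b2, the beta subunit, lay on the other side of 0, at 835, 666 and 764 against 1006, 797 and 904, with overlap and a log2 difference of 0.26 (SE 0.15, limma adjusted p = 0.295). Whether the subunits differed from each other was not tested. Of eIF2 itself, Eif2s3x, the gamma subunit, read 469.9, 417 and 534 against 376, 289 and 342 (log2 difference -0.50, SE 0.15, no overlap, limma adjusted p = 0.0738). Eif2s1, the alpha subunit whose phosphorylation shuts down initiation, stood at -0.03 (95% interval -0.49 to 0.44), with overlap.

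**Figure D3:**
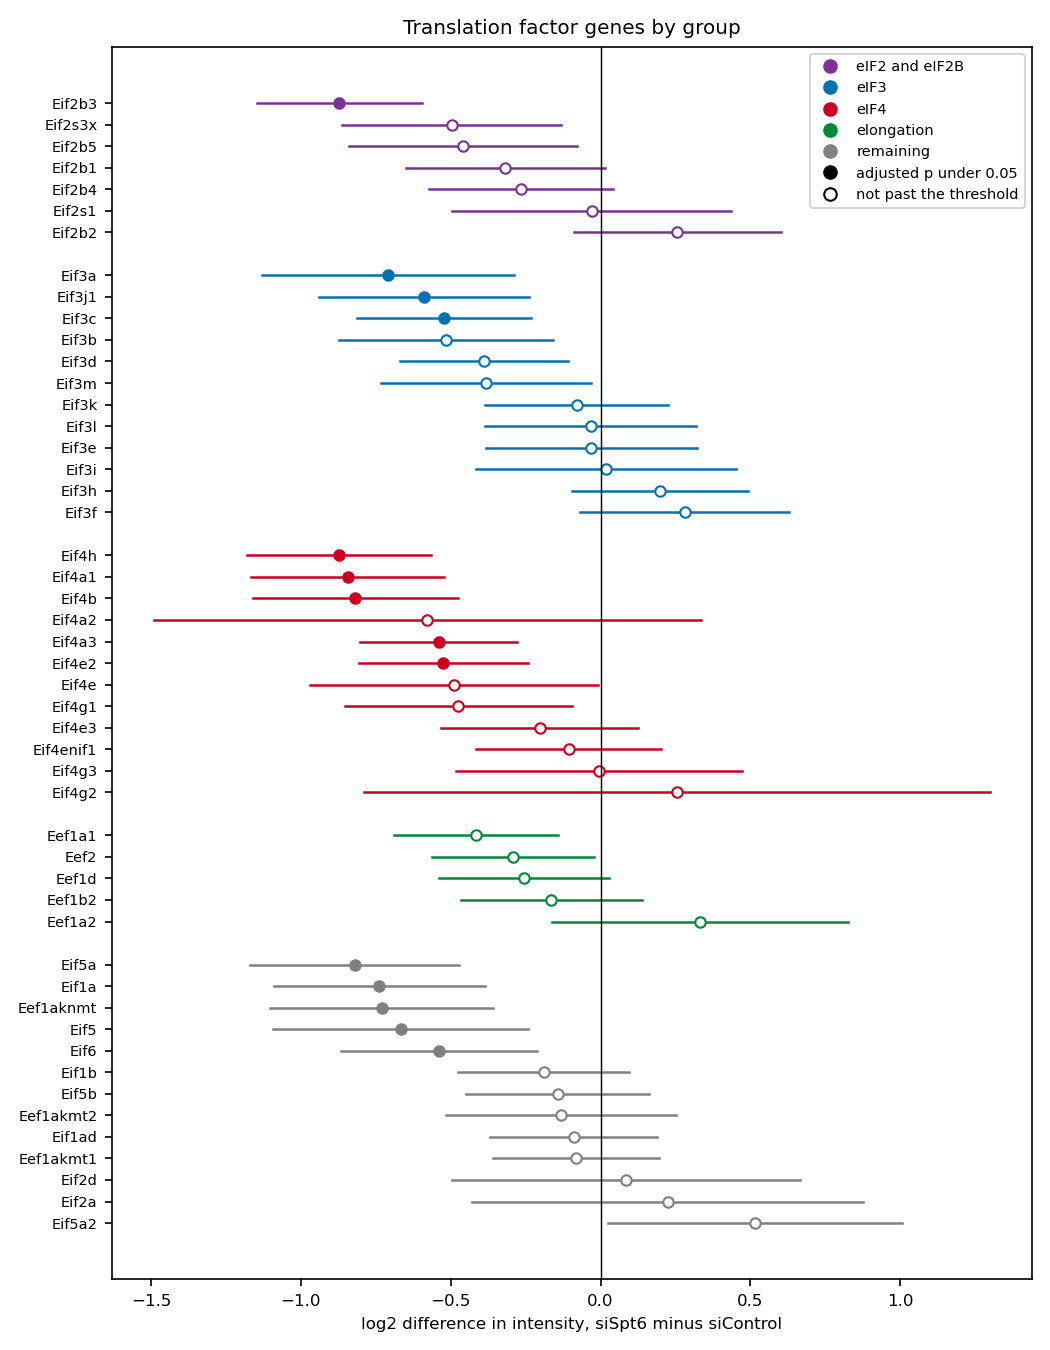
Log2 difference in intensity (siSpt6 minus siControl) of the 49 genes with 95% intervals, by group; filled points passed the threshold. All 14 filled points lie below 0, and Eif4h, at -0.87, is the lowest.

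eIF3 is the largest initiation factor, a complex that holds the small subunit ready for mRNA. Of 12 genes measured 3 fell (Eif3a, Eif3j1 and Eif3c), 9 did not pass, and the median log2 difference was -0.23. After quantile normalization and cyclic loess the median was 0.07 and 0.04, none of the 3 falls passed, and Eif3h and Eif3f rose. By the deposited values 9.65% of all genes tested fell. In the brightest 10% of genes, where the median level of the eIF3 group lay, 26.9% of all genes fell, with a median of -0.24. Eif3a, the scaffold of the complex, read 695, 959.9 and 698 in siControl and 495, 408 and 528 in siSpt6. The groups did not overlap, with a log2 difference of -0.71 (SE 0.18, limma adjusted p = 0.0386). Without any 1 array the limma adjusted p was 0.0573 to 0.108. Eif3c, the partner of eIF3a in the core, fell 1.44-fold, with intensities of 4708 ± 154 and 3288 ± 339 (SD, n = 3 in each group, limma adjusted p = 0.0312), and kept its call only without siSpt6 replicate 3 among those fits (limma adjusted p from 0.0315 to 0.0927).

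Eif3j1 encodes the loosely bound j subunit and was the 1 member read by several probes, which disagreed. The brightest read 347, 349 and 393 in siControl and 202, 258 and 267 in siSpt6, a log2 difference of -0.59 (limma adjusted p = 0.0385). A second probe stood at -0.84 (limma adjusted p = 0.0522). The third read 148, 141 and 163 against 221, 211 and 279, a rise of 0.65 (limma adjusted p = 0.0284) that held after both normalizations. That call was lost in 4 of the 6 fits without 1 array, those without siControl replicate 1 or 2 or siSpt6 replicate 1 or 3 (limma adjusted p up to 0.0852). None of the 3 probes had overlapping groups, so the direction of Eif3j1 depends on the probe. The sources used here do not give the place of each probe in the gene. Without any 1 array the brightest probe had a limma adjusted p of 0.0519 to 0.101.

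Eif3b, Eif3d and Eif3m had log2 differences of -0.52, -0.39 and -0.38, each without overlap and none past the threshold (limma adjusted p = 0.0617, 0.0694 and 0.135). eIF3b carries an RNA recognition motif and eIF3d can itself bind the cap. Eif3k, Eif3l, Eif3e and Eif3i stood at -0.08, -0.03, -0.03 and 0.02, all with overlap. The genes Eif3h and Eif3f, whose proteins share the MPN fold, were at the other end of the group. Eif3h read 10356, 9827 and 8575 in siControl and 11588, 10787 and 10556 in siSpt6, so that all siSpt6 arrays were higher. Its log2 difference was 0.20 by the deposited values (SE 0.12, limma adjusted p = 0.340) and 0.57 after either normalization (limma adjusted p = 0.0208 and 0.0177). Eif3f read 3722, 4618 and 4016 against 4716, 4560.5 and 5755, with overlap. It stood at 0.28 by the deposited values (limma adjusted p = 0.258) and at 0.59 after either normalization (limma adjusted p = 0.0355 and 0.0282). By structure, the 8 subunits of the octamer (a, c, e, f, h, k, l and m) had a median of -0.06, and b, d, i and j one of -0.45. After quantile normalization and cyclic loess the octamer median turned to 0.25 and 0.22, and the other went to -0.19 and -0.22. The latter is a median of 4 genes, among them Eif3j1, whose direction depends on the probe. The difference between octamer and other subunits was not tested.

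Among the factors of start-site choice and subunit joining, Eif1a and Eif5 fell. Eif1a, whose protein helps the ribosome scan for the start codon, read 871, 928 and 773 in siControl and 436, 565 and 546 in siSpt6. The groups stood well apart, with a log2 difference of -0.74 (SE 0.15), a 1.67-fold fall (limma adjusted p = 0.0181). Fits without siControl replicate 1 or siControl replicate 2 lost the call (limma adjusted p = 0.0574 and 0.0604). Eif5, the activator that makes eIF2 hydrolyse its GTP at the start codon, read 3198, 3449 and 2331 against 1871, 2055 and 1669. Its groups did not overlap and it fell 1.59-fold (log2 difference -0.67, SE 0.18, limma adjusted p = 0.0479). Among the fits without 1 array it kept its call only without siControl replicate 3, the lowest of its group (limma adjusted p from 0.0218 to 0.126).

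Eif6, whose protein keeps the large subunit from joining too early, read 854, 898 and 1059 in siControl and 582, 652 and 697 in siSpt6. The groups did not overlap, with a 1.45-fold fall (log2 difference -0.54, SE 0.14, limma adjusted p = 0.0408) that was lost in every fit without 1 array (limma adjusted p from 0.0594 to 0.113). Eif5b, the subunit joining factor, stood at -0.14, Eif1b, a close relative of Eif1, at -0.19 without overlap, and Eif1ad at -0.09. None of these passed. Eif2d and Eif2a, which encode alternative carriers of the initiator tRNA, stood at 0.09 and 0.22. Eif2a was even in siControl, at 1583, 1541 and 1512, and uneven in siSpt6, at 2179, 2371 and 1136. Without siSpt6 replicate 3 it rose by 0.56 on the log2 scale (limma adjusted p = 0.0411). Eif2a is also an older name of Eif2s1, so this probe's gene rests on the symbol as listed.

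Eif5a encodes the factor that carries the modified amino acid hypusine and helps ribosomes through stalling peptides. It read 12024, 11537 and 13970.3 in siControl and 6978, 6219 and 8104 in siSpt6. No siSpt6 array came near the siControl arrays, and the log2 difference was -0.82 (SE 0.15, 95% interval -1.17 to -0.47), a 1.77-fold fall (limma adjusted p = 0.0121). After quantile normalization and cyclic loess it was -0.43 and -0.46 (limma adjusted p = 0.109 and 0.0901). Its relative Eif5a2 was among the dim probes, at 5.29, 3.13 and 3.67 against 5.92, 5.91 and 5.07. The groups overlapped, and the log2 difference of 0.52 (95% interval 0.03 to 1.01) did not pass (limma adjusted p = 0.146). Without siControl replicate 1 it rose by 0.73 (limma adjusted p = 0.0386).

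The elongation factors proper did not pass by the deposited values. Of 5 genes measured none fell and none rose by limma's adjusted p, against 2 at an unadjusted p under 0.05. The median log2 difference was -0.26, and 0.04 and 0.06 after the 2 normalizations. In the brightest 10% of genes, where the group's median level lay, the deposited values gave all genes a median of -0.24, and 26.9% fell. Eef1a1, the carrier of aminoacyl-tRNA, read 56654, 55647 and 51302 in siControl and 40832, 43634 and 38316 in siSpt6. All siSpt6 arrays were lower, with a log2 difference of -0.41 (SE 0.12, 95% interval -0.69 to -0.14, limma adjusted p = 0.0534). It fell by the same difference with bright probes only, complete probes only, a pseudocount, and trend and robust options (limma adjusted p = 0.0138, 0.0463, 0.0328 and 0.00799). After normalization the difference was -0.04 by quantiles and 0.06 by cyclic loess. Eef2, the translocase, read 8301, 7414 and 7266 against 6448, 6081 and 6206, also without overlap (log2 difference -0.29, SE 0.11, limma adjusted p = 0.137), and stood at 0.04 and 0.05 after normalization.

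Of the exchange factor that reloads eEF1A, Eef1d had a log2 difference of -0.26 without overlap and Eef1b2 one of -0.16 with overlap (limma adjusted p = 0.205 and 0.444). Eef1a2, the form of eEF1A typical of muscle and nerve, was dim, at 16.7, 17.6 and 14.6 against 27.0, 20.0 and 15.8, with overlap and a log2 difference of 0.33 (limma adjusted p = 0.346). Of the methyltransferases, Eef1aknmt, which modifies the N terminus and a lysine of eEF1A, fell 1.66-fold. It read 49.1, 42.0 and 54.4 in siControl and 31.7, 24.9 and 31.2 in siSpt6, without overlap (log2 difference -0.73, SE 0.16, limma adjusted p = 0.0230). After quantile normalization and cyclic loess it was -0.72 and -0.75 (limma adjusted p = 0.0220 and 0.0164). Fits without siControl replicate 1, siControl replicate 3 or siSpt6 replicate 2 lost the call (limma adjusted p = 0.0678, 0.0629 and 0.0662). Eef1akmt1 and Eef1akmt2 stood at -0.08 and -0.13, with overlap.

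Side by side, the median log2 difference was -0.51 over the 12 eIF4 genes, -0.32 over the 7 genes of eIF2 and eIF2B, -0.26 over the 5 elongation genes, -0.23 over the 12 eIF3 genes and -0.14 over the 13 remaining genes. After quantile normalization these were -0.29, -0.14, 0.04, 0.07 and 0.04. The eIF4 and eIF2 groups were thus below 0 under all 3 scalings, and the other 3 groups changed sign. Falls numbered 5, 1, 0, 3 and 5 in the same order, and after quantile normalization 2, 1, 0, 0 and 2. Over all genes tested 9.65% fell by the deposited values and 7.15% after quantile normalization. Each group spanned more than its distance from the next, from -0.87 to 0.26 for eIF4 and from -0.71 to 0.28 for eIF3. The differences between groups were not tested.

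**Figure D4:**
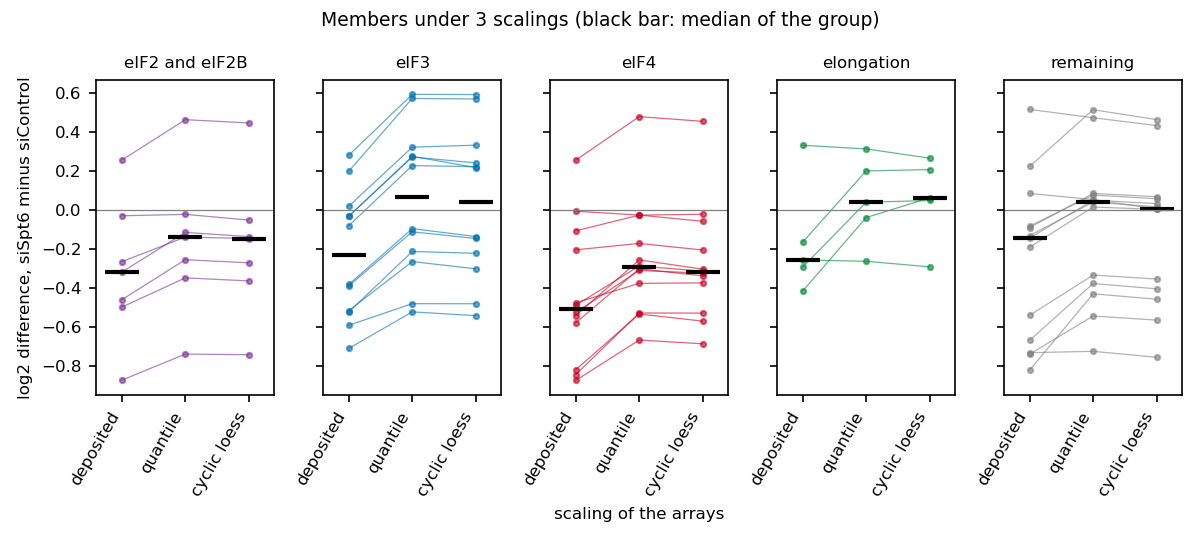
Log2 difference (siSpt6 minus siControl) of each member by group under the deposited scaling, quantile normalization and cyclic loess, with the group median as a bar. The eIF4 median stays below 0 (-0.51, -0.29 and -0.32), while that of eIF3 goes from -0.23 to 0.07 and 0.04.

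Of 49 other genes of translation and its control, 45 were measured, 8 fell (17.8%) and 1 rose. Over all genes tested 9.65% fell and 7.4% rose. When any 1 array was left out, 2 to 4 fell and 1 or 2 rose. After either normalization 4 fell and 2 rose. By quantile normalization and cyclic loess 7.15% and 8.03% of all genes fell, and 8.68% and 8.51% rose. The rise by the deposited values was in Eif2ak3, which encodes PERK, the kinase of the endoplasmic reticulum that phosphorylates eIF2 under unfolded protein stress. It read 152, 149 and 161 in siControl and 437, 398 and 556 in siSpt6. Every siSpt6 array was far above every siControl array, with a 2.98-fold rise (log2 difference 1.58, SE 0.15, limma adjusted p = 0.00163) that was present after both normalizations and without any 1 array. The other eIF2 kinases measured did not pass. Eif2ak4 (GCN2, which senses lack of amino acids) stood at 0.29 and Eif2ak2 (PKR, which senses double-stranded RNA) at 0.09.

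Of 20 regulators measured, Larp1 and Eif4ebp1 fell, and 17 did not pass. Larp1, whose protein binds the mRNAs of ribosomal proteins and elongation factors at their cap, read 263, 253 and 309.7 against 171, 170.2 and 203. It fell without overlap, by 0.60 on the log2 scale (limma adjusted p = 0.0289). Eif4ebp1, the repressor that holds eIF4E, read 39.6, 38.6 and 42.8 against 25.4, 27.5 and 32.7 and fell by 0.51 (limma adjusted p = 0.0478), also without overlap. Among the fits without 1 array, both kept their calls only without siSpt6 replicate 3 (limma adjusted p up to 0.0881 and 0.128). Pabpc1, the poly(A)-binding protein, stood at -0.44 and Eif4ebp2 at -0.41, without overlap and not past the threshold (limma adjusted p = 0.0664 and 0.0951). After quantile normalization and cyclic loess Pabpc1 stood at -0.0761 and -0.0440, while bright probes only, the pseudocount, and trend and robust options called it lower (limma adjusted p = 0.0183, 0.0400 and 0.0136). Eif4ebp2 stood at -0.35 and -0.37 after the normalizations and was called lower with bright probes only and with trend and robust options (limma adjusted p = 0.0300 and 0.0417).

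Termination and recycling held 3 falls among 6 genes measured, where 9.65% of all genes tested fell, and 1 fall after either normalization. Abce1, which splits ribosomes after termination, read 469, 422 and 487 in siControl and 291, 249.8 and 262 in siSpt6, a 1.72-fold fall without overlap (limma adjusted p = 0.00790) that was kept after both normalizations and without any 1 array. Etf1, the release factor that reads stop codons, read 2594, 2771 and 1872 against 1592, 1315 and 1081 and fell 1.81-fold (limma adjusted p = 0.0347). Its partner Gspt1 fell 1.46-fold, with intensities of 1534 ± 166 and 1047 ± 47.4 (SD, n = 3 in each group, limma adjusted p = 0.0311). Both lost their calls after both normalizations (limma adjusted p from 0.0956 to 0.216). Over the fits without 1 array their limma adjusted p ran from 0.0241 to 0.0969 and from 0.0360 to 0.0952. Etf1 kept its call only without siControl replicate 3 or siSpt6 replicate 1, and Gspt1 only without siControl replicate 2.

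Of 11 genes of factor modification and selenocysteine insertion, Eef1e1 fell 1.89-fold, from 1056, 1136 and 874 to 551, 515 and 549.9 (limma adjusted p = 0.00652), and it too kept its call after both normalizations and without any 1 array. Despite its symbol, Eef1e1 encodes a part of the multi-tRNA synthetase complex. The other 10 genes of this list did not pass. Dhps and Dohh, which make the hypusine of eIF5A, stood at -0.27 and -0.23, each without overlap (limma adjusted p = 0.141 and 0.210). After quantile normalization and cyclic loess Dhps stood at 0.00595 and -0.0395 and Dohh at -0.10 and -0.11. Of 8 mitochondrial factors, Mrrf and Mtrf1l, of ribosome recycling and release, fell by 0.56 and 0.49 (limma adjusted p = 0.0407 and 0.0369). Both missed the threshold without any 1 array and after quantile normalization and cyclic loess, by which Mrrf stood at -0.48 and -0.49 (limma adjusted p = 0.0630 and 0.0546) and Mtrf1l at -0.42 by both (0.0809 and 0.0743). Mtif2, the mitochondrial initiation factor, stood at 0.44 (limma adjusted p = 0.0704) and rose after quantile normalization (0.59, limma adjusted p = 0.0330), after cyclic loess, and with bright probes only, the pseudocount, or trend and robust options.

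**Figure D5:**
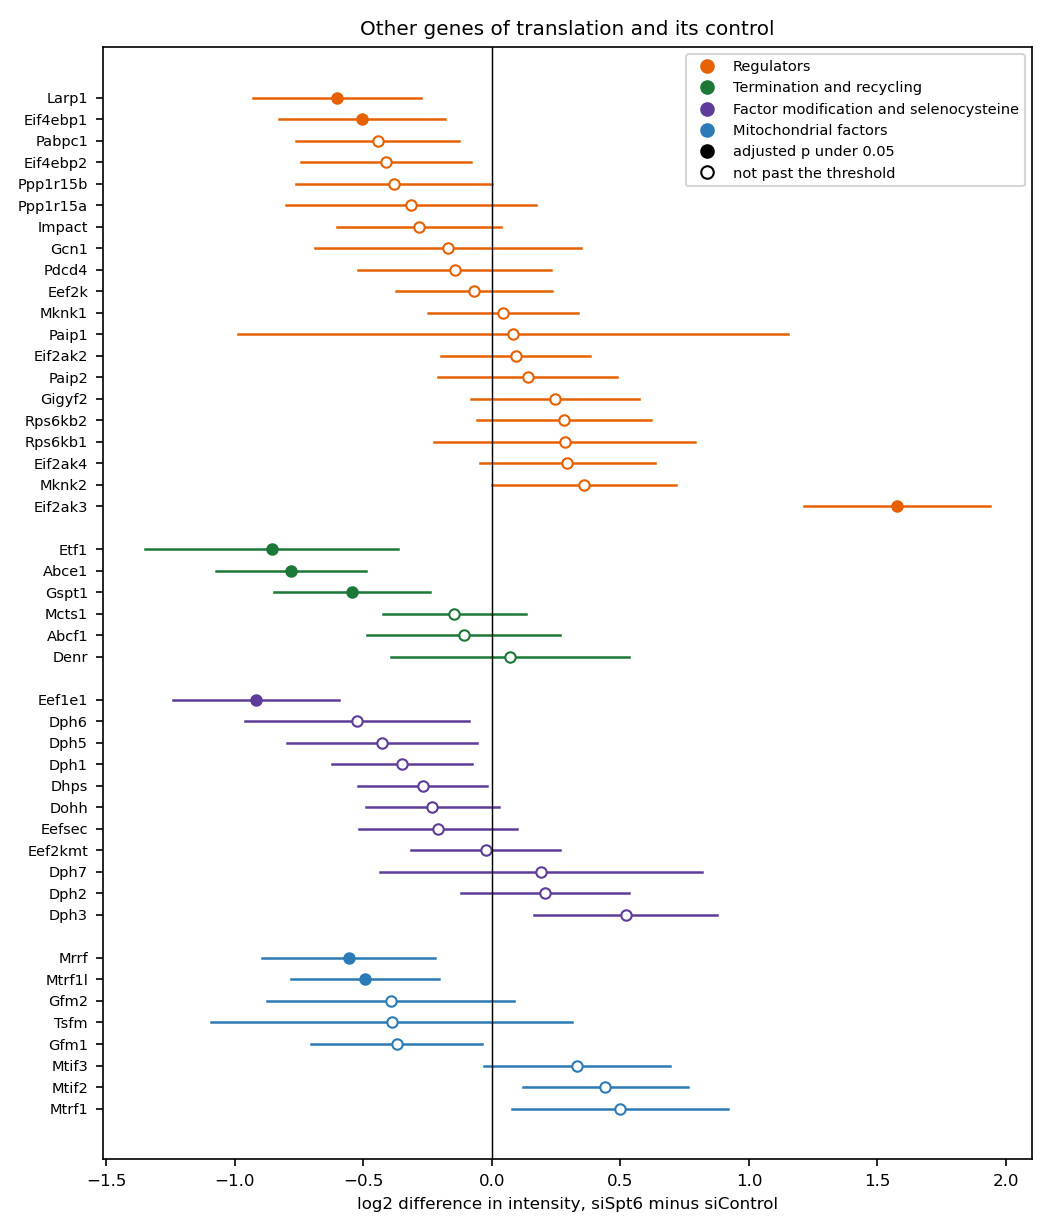
Log2 difference in intensity (siSpt6 minus siControl) with 95% intervals for 45 other genes of translation and its control, by list; filled points passed the threshold. Eif2ak3, at 1.58, is the single filled point above 0.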

How the data were processed

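RNA from 6 samples, 3 siControl and 3 siSpt6, was read on 1-colour arrays, with groups and replicate numbers from the titles. The RNA was amplified, coupled to Cy5 and fragmented after TORAY's protocol, per the labels' protocols. The authors deposited 1 intensity per probe and array, on a linear scale; the sources used here do not give their background correction or normalization. The values had medians near 30 on every array, and 4.69% to 8.29% of probes were blank on an array and taken as missing. Signal over background was not given, so dim values have no stated limit.

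Symbols (16631 of 23473 probes had one) were updated through RefSeq names of GRCm38.p6: 12622 were current, 3947 were older names of 1 gene, 59 were older names shared by several genes and 3 matched none. Values were log2-transformed without a pseudocount. The 21584 probes read on 2 or 3 siControl arrays and on 2 or 3 siSpt6 arrays were fitted in limma 3.58.1 (R 4.3.3, lmFit and eBayes, group as the only term, two-sided), with Benjamini-Hochberg adjustment over all of them and a threshold of 0.05. Folds compare geometric means; means ± SD are of linear intensities. The limma fit was tested on simulated arrays that had no blank values and no trend of change with brightness. The other steps were not part of that test.

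Members, groups and lists were chosen with earlier results of these data known, so lists are given by counts and medians, without a test. Named were all members past the threshold (array values for the 12 largest falls), the extremes of each group, paralogues, related genes past the threshold and Supt6; the other members and related genes were added after their values were seen. Alternatives were median centring, quantile normalization, cyclic loess, complete probes only, bright probes only, a pseudocount of 2.66, eBayes with trend and robust options, the replicate number as a block, the mean of a gene's probes, other thresholds and each array left out.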

Additional observations from a re-analysis of the deposited data

How the results depend on the processing

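With quantile normalization 5 members fell and 2 rose, with cyclic loess 6 and 2, and at an adjusted p under 0.01 (limma) 3 fell; 21 fell with bright probes only, 20 with trend and robust options and 18 with the pseudocount; without 1 array 6 to 9 fell and 0 to 1 rose. Median log2 differences with quantile normalization and cyclic loess were -0.14 and -0.15 for eIF2 and eIF2B, 0.0664 and 0.0411 for eIF3, -0.29 and -0.32 for eIF4, 0.0401 and 0.0624 for elongation, 0.0406 and 0.00555 for the remaining genes and -0.11 and -0.14 for all members. With bright probes only the median of all members was -0.39, over fewer genes, and with the mean of a gene's probes that of eIF3 was -0.17. By that mean 13 of the 14 falls kept their calls, and Eif3j1 lost its own. Without 1 array the medians ran from -0.32 to -0.26 for all members, -0.38 to -0.29 for eIF2 and eIF2B, -0.26 to -0.21 for eIF3, -0.54 to -0.45 for eIF4, -0.28 to -0.19 for elongation and -0.20 to -0.12 for the remaining genes. Of the related genes, 4 fell and 2 rose with either normalization, 14 fell and 4 rose with bright probes only, 3 rose with the pseudocount, 4 with trend and robust options and 2 with the replicate block, and 2 to 4 fell and 1 to 2 rose without 1 array. Over all probes 1047 to 1124 rose and 1052 to 1421 fell without 1 array. With bright probes only 1459 rose and 2515 fell of 10792 probes, and fewer members were kept. Of 21584 probes, 1996 rose and 2572 fell with trend and robust options, and 1833 rose and 2293 fell with the pseudocount.

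Differences that changed sign, none of them past the threshold by the deposited values, had these values with quantile normalization and cyclic loess: Eef1akmt1 0.0767 and 0.0582, Eef1akmt2 0.0406 and 0.0163, Eef1b2 0.20 and 0.21, Eef2 0.0401 and 0.0491, Eif1ad 0.0849 and 0.0686, Eif1b 0.0156 and 0.00345, Eif3e 0.27 and 0.24, Eif3k 0.23 and 0.22, Eif3l 0.28 and 0.22, Eif5b 0.0506 and 0.0333. Eef1a1 changed sign with cyclic loess, to 0.0624, and Dhps with quantile normalization, to 0.00595. Without 1 array, 8 changed sign in at least 1 fit, with ranges of -0.12 to 0.23 (Eif2d), -0.19 to 0.16 (Eif2s1), -0.14 to 0.0466 (Eif3e), -0.18 to 0.15 (Eif3i), -0.11 to 0.0843 (Eif3l), -0.26 to 0.68 (Eif4g2), -0.17 to 0.20 (Eif4g3) and -0.34 to 0.48 (Paip1). The cause was not tested.

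Same-numbered arrays of the groups correlated in their deviations at r = 0.35, 0.08 and 0.26; each sample correlated best with its own number, a hint from the data only. With the replicate block 13 members fell, 12 of them among the 14 without it (Eif3a and Eif3c were lost, Eif2b5 gained), and 1630 probes rose and 1964 fell. The 3 arrays per group limit the precision.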

Other observations

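The related genes named next were singled out after their values were seen. Paip1 and Tsfm varied more between arrays of a group than between the groups. Paip1, which encodes a partner of the poly(A)-binding protein, read 53.5, 53.9 and 22.3 in siControl and 55.8, 55.6 and 24.5 in siSpt6, so that replicate 3 was the lowest array of both groups. Tsfm, a mitochondrial elongation factor gene, read 598, 434 and 338 against 497, 289.7 and 271, with replicate 1 the highest of both. Dph3, one of the genes that make the diphthamide of eEF2, was higher on every siSpt6 array, at 78.2, 86.5 and 72.7 against 59.2, 60.6 and 46.3, while Dph1 and Dph5 were lower on every siSpt6 array. None of these 5 passed the threshold by the deposited values (limma adjusted p = 0.931 for Paip1, 0.438 for Tsfm, 0.0591 for Dph3, 0.0875 for Dph1 and 0.117 for Dph5). Bright probes only took Dph3, Dph1 and Dph5 past it (limma adjusted p = 0.0149, 0.0282 and 0.0399). Dph3 also passed with the pseudocount, with trend and robust options and with the replicate block (limma adjusted p = 0.0347, 0.0216 and 0.0414), and Dph5 with trend and robust options (0.0462).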
